A study of Rattus norvegicus with 7 samples.

Results

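The Rab genes encode the largest family of small GTPases of membrane traffic. The rat RefSeq gene table lists 58 genes whose symbol is Rab, a number and at most 1 letter from a to d, and all of them were taken as members. A probe was present on the array for 54 of the 58, and 49 gave a signal well above background on at least 3 of the 7 arrays and were measured. The 5 genes with a probe that did not reach this were Rab17, Rab19, Rab25, Rab32 and Rab38. No probe was matched to Rab22a, Rab37, Rab42 or Rab44. The measured members hold 6 genes of secretory and synaptic vesicles (Rab3a, Rab3b, Rab3c, Rab3d, Rab27a and Rab27b) and 43 others.

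Expression was measured on 1-colour Agilent arrays in the cerebellum of female Wistar rats aged 21 days, the day of weaning, with 1 array per pup. The 4 CTRL pups came from dams on a standard diet, and the 3 MDD pups from dams whose diet was short of vitamin B12 and folate and had less choline (methyl donor deficiency). Either diet was given from 1 month before pregnancy until weaning, so the deficiency covered gestation and lactation. The labels do not name dams or litters, so the p-values measure the spread between pups, some of which may share a litter. Values are log2 signals relative to the 75th percentile of the same array, so that 0 is that percentile. They compare 1 probe between arrays and not different genes with each other.

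A Rab protein switches between a GDP-bound form in the cytosol and a GTP-bound form on a membrane, where it recruits effectors such as motors, tethers and kinases. Exchange factors load GTP, GTPase-activating proteins end the active state, and the prenylation and GDI machinery delivers Rab proteins to membranes and retrieves them. Each Rab marks its own compartment. In neurons Rab3 proteins sit on synaptic vesicles and take part in transmitter release, while Rab5, Rab11 and Rab10 serve endocytosis, recycling and the supply of membrane to growing axons and dendrites.

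Arrays had 74.1% to 79.6% of spots well above background, and the 75th percentile lay between 1140 and 2105 intensity units. All arrays were on 1 slide with 1 scan time, with CTRL 1 to 3 in row 1 of the slide and CTRL 4 and the 3 MDD arrays in row 2. The 5 granule neuron markers measured were the main check of the tissue. All 5 were detected, and 2 of them fell in MDD; their mean deviation from the CTRL mean was -0.05 to 0.10 over the CTRL arrays and -0.66 to -0.31 over the MDD arrays. All 6 microglia markers changed, 5 higher and 1 lower, with mean deviations of -0.05 to 0.05 in CTRL and 0.41 to 0.84 in MDD. Of 4 genes listed as interneuron markers, Gad1 and Gad2 fell, Pvalb rose and Slc6a5 did not pass (-0.39, limma adjusted p = 0.220). Their mean deviations were -0.06 to 0.12 in CTRL and -0.26 to -0.09 in MDD. Whether these genes mark interneurons alone in this tissue was not tested. The 3 endothelial markers deviated by -0.04 to 0.04 in CTRL and 0.12 to 0.38 in MDD, and Cldn5 rose. Of 5 markers each, Calb1 of Purkinje cells and Mobp of oligodendrocytes fell and Aldh1l1 of astrocytes rose, and 0 of 4 meningeal markers passed (1 at an unadjusted p under 0.05). The 4 choroid plexus markers deviated by -0.31 to 0.24 in CTRL and by -0.23 to 1.03 in MDD, and none of them passed the test (3 at an unadjusted p under 0.05). Of 4 forebrain markers, only Neurod6 passed the filter on dim probes. In bulk tissue, fewer cells of a type and less RNA per cell cannot be told apart, and the part of cell composition in the results on Rab genes was not tested.

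The promoters of called members are shown first because the diet limits methyl donors and CpG dinucleotides are the sites of DNA methylation; methylation itself was not measured here. RefSeq windows of the assembly GRCr8, from 250 bases before to 50 bases after 1 start site on the gene's own strand, were available for 41 of the 49 measured members. The start site of the window was the outer 5′ end of the gene in the RefSeq gene table for 18 of them and within 100 bases of it for 27. It lay over 1000 bases inside the gene for 5 (Rab3c, Rab5a, Rab7a, Rab14 and Rab27b), whose windows may not cover the main promoter. They are printed for Rab34 (chr10:63581292-63581591, plus strand), which rose in MDD, and for the 3 members with the smallest p among those that fell and had a window, Rab9b (chrX:105023823-105024122, minus strand), Rab11a (chr8:74141635-74141934, minus strand) and Rab10 (chr6:32039505-32039804, minus strand). The printed windows lie at the outer end of the gene for Rab34, Rab9b and Rab10 and 76 bases inside it for Rab11a. Capitals mark GC boxes, the letters GGGCGG or their complement CCGCCC, which are the core of Sp1 family sites.
Rab34: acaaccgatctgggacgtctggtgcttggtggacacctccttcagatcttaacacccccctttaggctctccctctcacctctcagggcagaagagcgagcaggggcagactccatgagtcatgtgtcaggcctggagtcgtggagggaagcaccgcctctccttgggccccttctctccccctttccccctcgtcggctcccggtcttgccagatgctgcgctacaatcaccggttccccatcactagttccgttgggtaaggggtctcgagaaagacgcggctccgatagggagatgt
Rab9b: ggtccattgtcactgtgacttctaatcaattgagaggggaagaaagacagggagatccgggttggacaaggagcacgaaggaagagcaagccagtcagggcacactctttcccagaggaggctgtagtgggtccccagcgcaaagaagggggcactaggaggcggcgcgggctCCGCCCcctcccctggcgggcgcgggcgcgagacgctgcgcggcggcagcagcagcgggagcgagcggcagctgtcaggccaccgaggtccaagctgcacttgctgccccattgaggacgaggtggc
Rab11a: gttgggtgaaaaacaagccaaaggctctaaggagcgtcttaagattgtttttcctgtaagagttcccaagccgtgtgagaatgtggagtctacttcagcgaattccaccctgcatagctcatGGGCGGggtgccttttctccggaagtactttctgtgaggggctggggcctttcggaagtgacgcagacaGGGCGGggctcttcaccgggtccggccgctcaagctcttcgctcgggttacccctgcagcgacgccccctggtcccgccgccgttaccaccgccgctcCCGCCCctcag
Rab10: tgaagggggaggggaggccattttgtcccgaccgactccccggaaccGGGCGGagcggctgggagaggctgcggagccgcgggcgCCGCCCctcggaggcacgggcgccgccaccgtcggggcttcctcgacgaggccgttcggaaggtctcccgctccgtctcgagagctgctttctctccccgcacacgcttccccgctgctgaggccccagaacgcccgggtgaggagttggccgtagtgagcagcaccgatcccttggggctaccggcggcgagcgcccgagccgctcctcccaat
The Rab34 window held 15 CpG and no GC box, the Rab9b window 21 CpG and 1 GC box, the Rab11a window 21 CpG and 3 GC boxes, and the Rab10 window 37 CpG and 2 GC boxes. A GC box on either strand was present in 36 of the 41 Rab windows (87.8%), against 58.0% of the windows of 10269 genes tested on these arrays and 33.1% of all 33469 windows. Among the 27 windows within 100 bases of the outer end it was present in 24 (88.9%), with 6 to 41 CpG. The median number of CpG was 22 over the 41 Rab windows (range 4 to 41, the lowest in that of Rab14), 19 over the genes tested and 7 over all windows. The E-box CACGTG was found in 4 of 41 Rab windows (9.76%), against 8.68% of the genes tested and 6.42% of all windows. The palindromic NRF1 motif was found in 1 (2.44%, against 1.59% and 0.852%). The cAMP response element TGACGTCA and the letters TATAAA were found in none, against 3.03% and 8.37% of the genes tested and 1.83% and 14.2% of all windows. The 5 motifs were searched on both strands and were chosen after the expression values had been seen.

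Of the 49 measured Rab genes, 7 (14.3%) had a Benjamini-Hochberg adjusted p under 0.05 in limma, against 20.4% of all 19991 genes and unnamed probes tested and 18.1% of the 11966 named genes. Rab34 and Rab1b rose in MDD, and Rab9b, Rab11a, Rab10, Rab23 and Rab5a fell. The 2 rises compare with 12.7% of all features called higher, and the 5 falls with 7.72% called lower; over named genes these shares were 11.4% and 6.68%. MDD and CTRL arrays did not overlap for 14 members (28.6%; 8 higher and 6 lower in MDD), against 36.5% of all features (20.1% higher and 16.4% lower) and 36.2% of named genes. The mean was higher in MDD for 25 members and lower for 24. The median log2 change over the family was 0.07, with a range from -1.26 to 0.68, beside a median of -0.03 over all features. The share of members called is near the share over all features and is not a result about the family, and its members were divided between both directions.

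**Figure D1:**
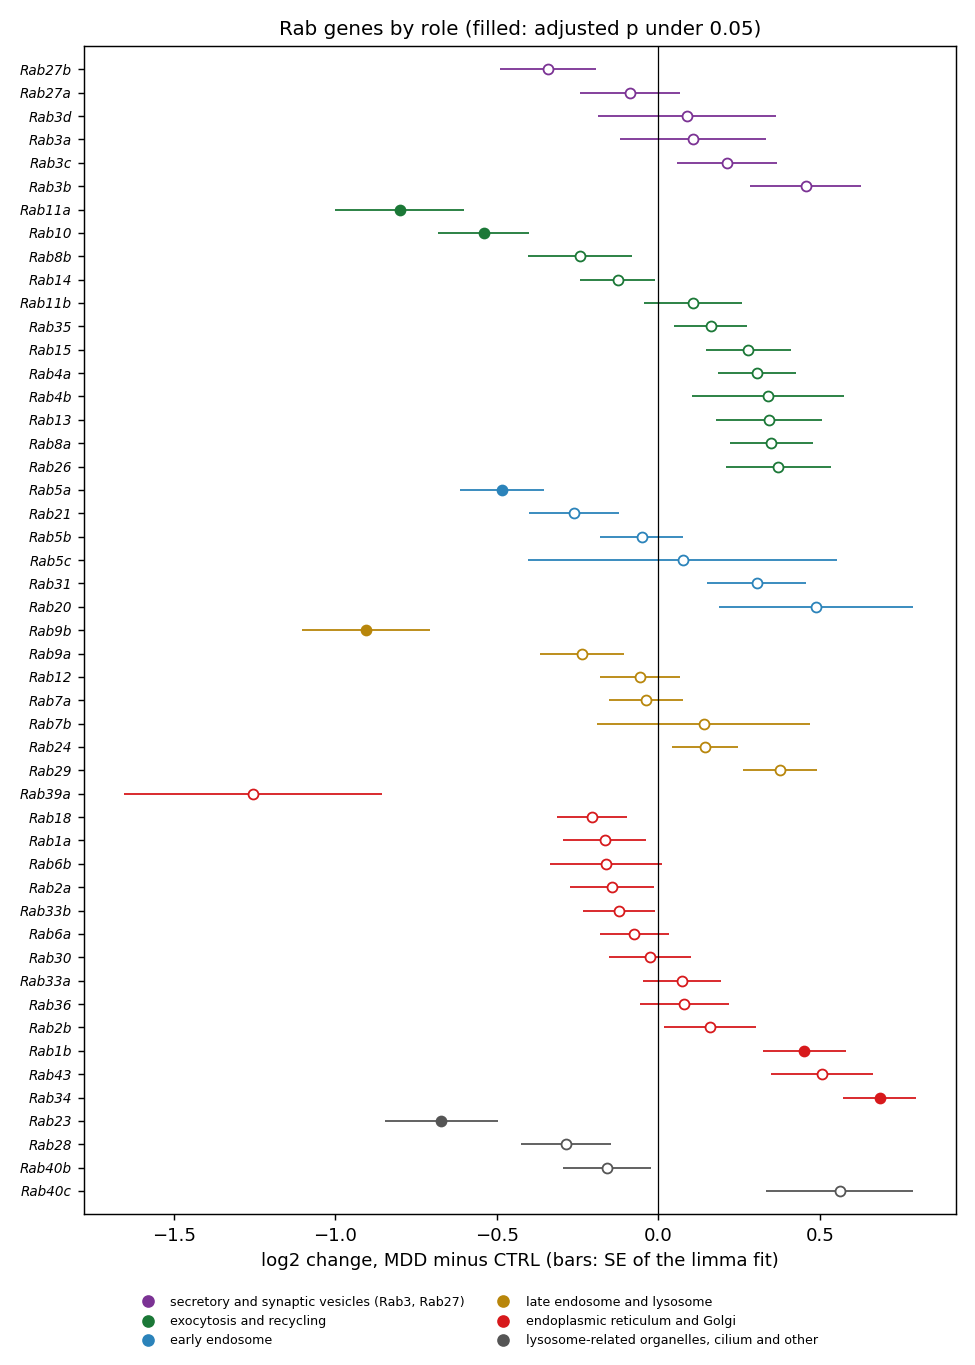
Log2 change of the 49 measured Rab genes (MDD minus CTRL, x axis), grouped by role and ordered by size within a role, with bars for the SE of the limma fit (4 CTRL and 3 MDD arrays). Filled points mark the 7 members with an adjusted p under 0.05, of which 2 lie to the right of 0 and 5 to the left; every role holds members on both sides of 0.

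Among the 14 members of the endoplasmic reticulum and Golgi apparatus, 2 rose, none fell, and the median change was -0.05. The share called was 14.3%, against 20.4% of all features. Rab34, a Golgi and macropinosome Rab that is also needed to form primary cilia, measured 1.72, 1.79, 1.73 and 1.61 in CTRL 1 to 4 and 2.50, 2.36 and 2.33 in MDD 1 to 3. All MDD arrays lay above all CTRL arrays, and the gap between the groups was larger than the spread within either. The means were 1.71 ± 0.08 (SD, n = 4) and 2.40 ± 0.09 (SD, n = 3), a 1.61-fold rise (log2 change 0.68, SE 0.11, limma adjusted p = 0.0107). Rab34 was the only one of the 7 called members that passed the threshold with each array left out in turn (adjusted p 0.0117 to 0.0436).

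Rab1b, which acts in transport from the endoplasmic reticulum to the Golgi, measured 2.19, 2.51, 2.51 and 2.48 in CTRL and 2.80, 2.83 and 2.99 in MDD. The groups did not overlap, and CTRL 1 was the lowest array. The means were 2.43 ± 0.15 (SD, n = 4) and 2.88 ± 0.10 (SD, n = 3), a 1.37-fold rise (log2 change 0.45, SE 0.13, limma adjusted p = 0.0425). Its 4 kept probes gave changes of 0.37 to 0.45, but the groups overlapped in some of them. CTRL 3 lay above MDD 1 in the probe with 0.37 (-0.32 against -0.34) and in the dimmest probe (-2.45 against -2.84). The call was lost with the mean of these probes (0.42, limma adjusted p = 0.103). It was also lost with quantile normalization (0.23, 0.198) and in the authors' deposited table (0.26, 0.136). The adjusted p was above the threshold without any 1 of the 7 arrays (0.0548 to 0.0915). Its near copy Rab1a, one of the 4 brightest probes among members that did not pass, measured 2.68, 2.72, 2.66 and 2.53 in CTRL and 2.67, 2.29 and 2.48 in MDD. The Rab1a groups overlapped, and its change was -0.17 (95% interval -0.46 to 0.13, limma adjusted p = 0.365). Of the other Golgi members, Rab43 had a change of 0.51 (adjusted p = 0.0543), and it passed with quantile normalization (0.64, 0.0190), median scaling (0.55, 0.0253), the all-array filter (0.51, 0.0433), the length and signal trend removed (0.57, 0.0312), MDD 1 left out (0.64, 0.0433) and in the authors' deposited table (0.31, 0.0466). Rab43 did not pass with normexp background correction, without the filter on dim probes or with the mean of a gene's probes. Nor did it pass with the slide row or replicate number as a block, or with any array other than MDD 1 left out. Rab6b, the neuronal form of Rab6 in Golgi transport, had a change of -0.16 (adjusted p = 0.515). Rab39a had the most negative change of the family, -1.26 (SE 0.40, adjusted p = 0.0566), and was well above background on 4 CTRL arrays but only 1 of 3 MDD arrays.

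Among the 12 members of exocytosis and recycling, 2 fell, none rose, and the median change was 0.22. The share called was 16.7%, against 20.4% of all features. Rab11a, the Rab of the recycling endosome, measured 0.16, 0.28, 0.21 and 0.30 in CTRL and -1.06, -0.45 and -0.18 in MDD. All MDD arrays lay below all CTRL arrays, MDD 1 farthest, and the MDD arrays spread much more than the CTRL arrays. The means were 0.24 ± 0.06 (SD, n = 4) and -0.56 ± 0.45 (SD, n = 3), a 1.74-fold fall (log2 change -0.80, SE 0.20, limma adjusted p = 0.0291). The adjusted p rose above the threshold without CTRL 1, 2, 3 or 4 (0.0591, 0.0669, 0.0661 and 0.0778), and without MDD 1 the change was -0.55. The closely related Rab11b had a change of 0.11 (95% interval -0.24 to 0.45, adjusted p = 0.630).

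Rab10, which delivers vesicles to the plasma membrane and is a substrate of the kinase Lrrk2, measured 1.75, 1.81, 1.83 and 1.89 in CTRL and 1.04, 1.26 and 1.54 in MDD. Every MDD array was below every CTRL array, with MDD 3 nearest to them. The means were 1.82 ± 0.06 (SD, n = 4) and 1.28 ± 0.25 (SD, n = 3), a 1.46-fold fall (log2 change -0.54, SE 0.14, limma adjusted p = 0.0328). The call held only without MDD 3 (adjusted p = 0.0206) and was lost without any 1 of the other 6 arrays (0.0528 to 0.0888). In the same role group the means of 8 members were higher in MDD without passing the test, among them Rab8a (0.35, adjusted p = 0.0840) and Rab4a, the Rab of fast recycling (0.31, adjusted p = 0.0987). Rab4a measured 2.69, 2.82, 2.89 and 2.78 in CTRL and 3.20, 2.95 and 3.16 in MDD, with no overlap.

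Of the 6 early endosome members, only Rab5a passed the test (16.7%, against 20.4% of all features). Rab5a, which controls fusion of endocytic vesicles with early endosomes, measured 0.78, 0.65, 0.58 and 0.62 in CTRL and -0.04, 0.32 and 0.24 in MDD. The groups did not overlap, and MDD 1 was the lowest array. The means were 0.66 ± 0.09 (SD, n = 4) and 0.17 ± 0.19 (SD, n = 3), a 1.40-fold fall (log2 change -0.48, SE 0.13, limma adjusted p = 0.0361). This probe had 1 spot. A second probe of Rab5a with 2 spots gave -0.59, but its groups overlapped. On it CTRL 4 (-3.86) lay below MDD 1 (-3.82) and MDD 2 (-3.81). The call held only without MDD 2 (adjusted p = 0.0284) and was lost without any 1 of the other 6 arrays (0.0529 to 0.0854). The paralogs Rab5b and Rab5c had changes of -0.05 (95% interval -0.35 to 0.24, adjusted p = 0.790) and 0.08 (95% interval -1.02 to 1.17, adjusted p = 0.920). Both groups of Rab5c spread widely, and it measured -2.14, -0.54, -0.59 and -0.77 in CTRL and -1.86, -0.73 and -0.21 in MDD. Rab31, which acts between the Golgi and early endosomes, had a change of 0.30 (adjusted p = 0.177).

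Of the 7 late endosome and lysosome members, only Rab9b passed the test (14.3%, against 20.4% of all features). Rab9b belongs to the Rab9 pair that returns receptors from late endosomes to the Golgi, and measured -2.04, -2.20, -1.89 and -2.003 in CTRL and -3.41, -2.85 and -2.56 in MDD. All MDD arrays lay below all CTRL arrays, again with MDD 1 lowest. The means were -2.03 ± 0.13 (SD, n = 4) and -2.94 ± 0.43 (SD, n = 3), a 1.87-fold fall, which was the largest among called members (log2 change -0.90, SE 0.20, limma adjusted p = 0.0207). Its second probe gave -1.23. The call was lost without CTRL 3 (adjusted p = 0.0565) and without CTRL 4 (0.0614). Rab9a had a change of -0.24 (adjusted p = 0.206), and Rab7a, the central Rab of late endosomes and lysosomes, one of -0.04 (95% interval -0.30 to 0.22, adjusted p = 0.825).

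Rab29, a lysosomal and Golgi Rab linked to Lrrk2, stood just outside the threshold. It measured 0.07, 0.04, 0.07 and 0.04 in CTRL and 0.58, 0.42 and 0.30 in MDD. The groups did not overlap, and the change was 0.38 (SE 0.11, limma adjusted p = 0.0504). It passed in the authors' deposited table (0.35, 0.0342) and with the all-array filter (0.38, 0.0427). The same held with the mean of a gene's probes (0.38, 0.0490) and without MDD 3 (0.44, 0.0385). Rab29 did not pass in the other alternatives, and with the length and signal trend removed its change was 0.14 (limma adjusted p = 0.445).

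The last role group of 4 measured members holds Rab23, an inhibitor of Hedgehog signalling, and this gene fell. Rab23 was the only called member of the group (25%, against 20.4% of all features). It measured -3.06, -3.61, -3.27 and -3.46 in CTRL and -4.27, -3.77 and -4.03 in MDD. The groups did not overlap, but CTRL 2 and MDD 2 were close to each other. The means were -3.35 ± 0.24 (SD, n = 4) and -4.02 ± 0.25 (SD, n = 3), a 1.59-fold fall (log2 change -0.67, SE 0.18, limma adjusted p = 0.0330). Its second probe gave -0.28 with groups that overlapped, and was well above background on 3 CTRL arrays and 1 MDD array. The call was lost with the mean of both probes (-0.48, limma adjusted p = 0.0992) and with normexp background correction (-0.38, 0.143). With 1 array left out, it held only without CTRL 2 (adjusted p = 0.0457) and without MDD 2 (0.0225). It was lost without any 1 of the other 5 arrays (0.0719 to 0.0842).

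**Figure D2:**
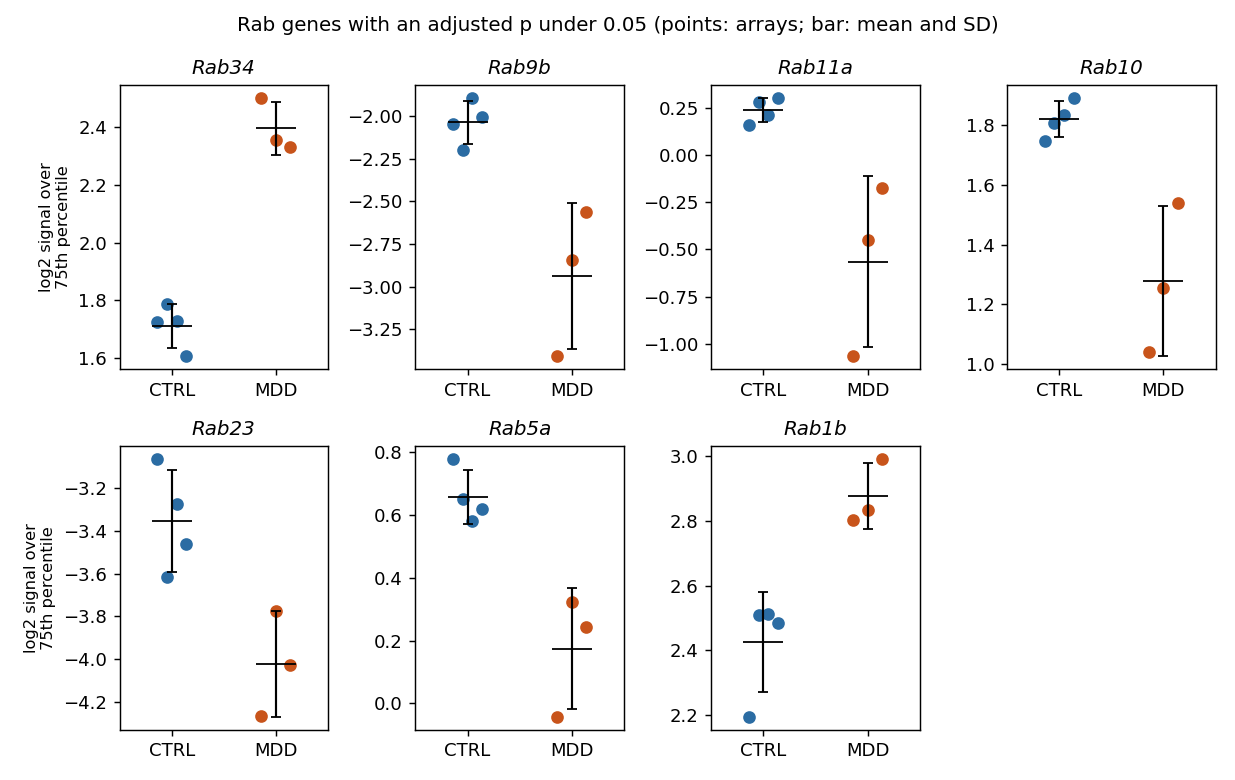
Log2 signal over the 75th percentile of the array (y axis) for the 7 Rab genes with an adjusted p under 0.05, 1 point per array, with the mean and SD of the 4 CTRL and 3 MDD arrays; each panel has its own y range. In all 7 panels the MDD points lie wholly above (Rab34, Rab1b) or wholly below the CTRL points, and the MDD points of Rab9b and Rab11a spread widely.

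The position of the arrays on the slide moved with the groups, since 3 of 4 CTRL arrays were in the other row. Within row 2, where CTRL 4 was the only CTRL array, the difference between the MDD mean and CTRL 4 was 0.79 for Rab34, 0.39 for Rab1b, -0.94 for Rab9b, -0.86 for Rab11a, -0.61 for Rab10, -0.56 for Rab23 and -0.44 for Rab5a. The groups of these genes do not overlap on the probe that stood for the gene, so the sign of these differences was fixed. These differences show only the size against 1 CTRL array. With the row as a block in the limma fit, 0 of the 49 members and 1 of the 19991 features passed (5 members at an unadjusted p under 0.05, against 16 without the block), and the adjusted p of the 7 was 0.138 for Rab34 and up to 0.340 for Rab1b.

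Gene length also moved with the change. Across the 49 members the Spearman correlation of the change with genomic length was -0.31, and across the 11966 named genes it was -0.40; all points share the same 7 arrays, and genes are not independent replicates. The shorter 24 members (2083 to 23281 bp) had 2 rises, 3 falls and a median of 0.11. The longer 25 (23578 to 223405 bp) had no rise, 2 falls and a median of -0.07. Over all features, 12.7% were called higher and 7.72% lower. Rab34 and Rab1b, the members that rose, are 4067 and 8276 bp long. After each array's trend with length and signal was removed, the changes were 0.34 for Rab34 (limma adjusted p = 0.0687), 0.13 for Rab1b (0.462) and -0.49 for Rab10 (0.0697), and none of these 3 passed. The other 4 still passed in that fit, with changes of -1.0 for Rab9b (adjusted p = 0.0242), -0.81 for Rab11a (0.0365), -0.59 for Rab23 (0.0444) and -0.46 for Rab5a (0.0459), and Rab43 passed in it as well.

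The comparison within the family asked whether the vesicle-linked Rab3 and Rab27 genes moved differently from the other members. None of the 6 passed the limma test after adjustment. An unadjusted p under 0.05 was found for 2 of the 6, for 14 of the other 43 members and for 7760 of the 19991 features. After adjustment 7 of the other 43 members passed (16.3%), and over all features 20.4%. With 6 genes, a count of 0 is not set apart from that share. Rab3a, the main Rab3 protein of synaptic vesicles, measured 0.99, 1.01, 1.24 and 1.21 in CTRL and 0.77, 1.10 and 1.79 in MDD. The MDD arrays lay below, within and above the CTRL range, so that the means of 1.11 ± 0.13 (SD, n = 4) and 1.22 ± 0.52 (SD, n = 3) differed by 0.11 (95% interval -0.41 to 0.63, adjusted p = 0.754). Without MDD 3 the difference was -0.18.

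Rab3b, a paralog that is also found on synaptic and secretory vesicles, measured -1.16, -1.50, -1.18 and -1.35 in CTRL and -0.87, -1.15 and -0.51 in MDD. It was the only one of the 6 without overlap (36.5% of all features had none), with MDD 2 next to the CTRL range. The difference was 0.46 (SE 0.17, 95% interval 0.06 to 0.85, adjusted p = 0.0919), and without MDD 2 it was 0.61 and passed (adjusted p = 0.0361). Rab3c measured -2.30, -2.45, -2.76 and -2.68 in CTRL and -2.19, -2.29 and -2.52 in MDD, with overlap and a difference of 0.21 (95% interval -0.14 to 0.56, adjusted p = 0.334). Rab3d, best known from secretory granules outside the brain, measured -3.26, -2.50, -2.53 and -2.36 in CTRL and -3.09, -2.48 and -2.15 in MDD. The Rab3d difference was 0.09 (95% interval -0.54 to 0.72, adjusted p = 0.835), and the first array of each group was its lowest; without CTRL 1 it was -0.11 and without MDD 3 it was -0.12.

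Rab27a, which docks lysosome-related organelles and secretory granules, measured -1.07, -0.77, -0.99 and -1.13 in CTRL and -0.94, -0.93 and -1.36 in MDD. Its groups overlapped, and the difference was -0.09 (95% interval -0.44 to 0.27, adjusted p = 0.703), or 0.05 without MDD 3. Rab27b, the form expressed more in neurons, measured -2.0, -2.25, -2.55 and -2.27 in CTRL and -2.67, -2.66 and -2.49 in MDD. Only CTRL 3 fell within the MDD range, and the difference was -0.34 (95% interval -0.68 to -0.0019, adjusted p = 0.127). With the length and signal trend removed, the Rab27b difference was -0.07 (limma adjusted p = 0.759). In that fit Rab3b differed by 0.63 (0.0507), Rab3c by 0.49 (0.0615) and Rab27a by 0.07 (0.793). Rab3a differed by -0.20 (0.527) and Rab3d by -0.0039 (0.993), and none of these genes passed.

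**Figure D3:**
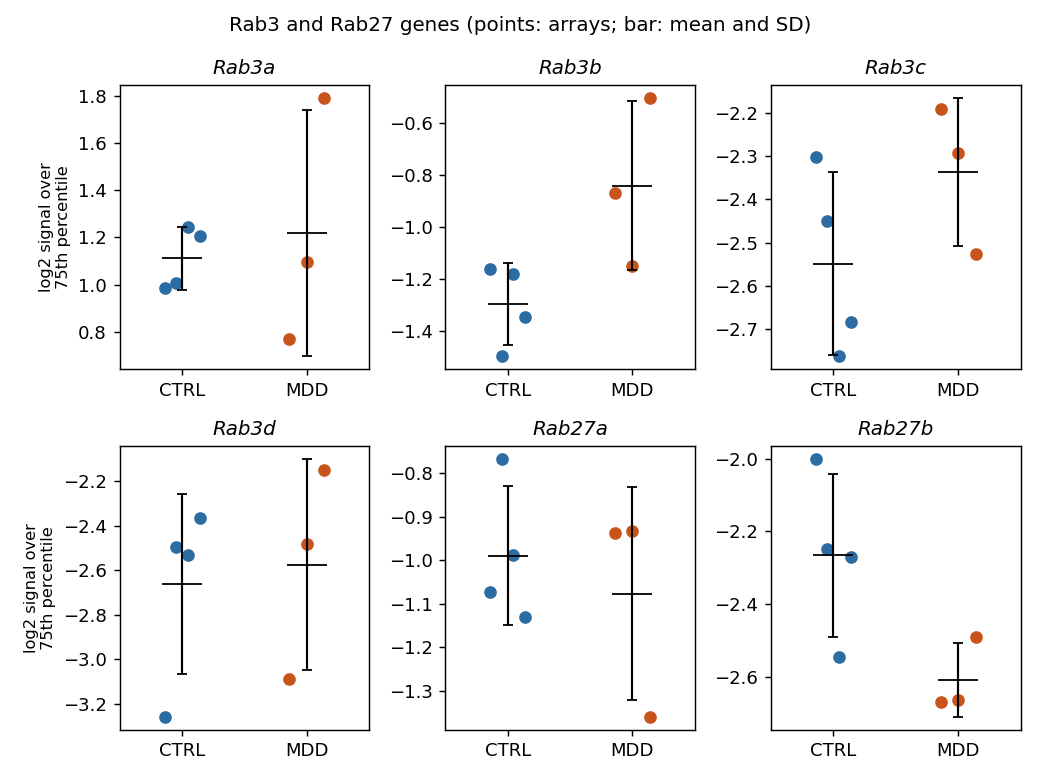
Log2 signal over the 75th percentile of the array (y axis) for the 6 Rab3 and Rab27 genes, 1 point per array, with the mean and SD of the 4 CTRL and 3 MDD arrays; each panel has its own y range. The groups overlap in all panels except Rab3b, where the 3 MDD arrays lie above the 4 CTRL arrays.

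The median change was 0.10 over the 6 Rab3 and Rab27 genes (range -0.34 to 0.46) and -0.03 over the other 43, a difference of 0.12. For each array, the median deviation from the CTRL mean was taken over both sets. Rab3 and Rab27 minus the others gave 0.01, 0.06, 0.05 and -0.0029 for CTRL 1 to 4, and -0.17, 0.20 and 0.19 for MDD 1 to 3. MDD 2 and MDD 3 lay above the CTRL arrays and MDD 1 below them. The MDD arrays thus did not share a direction in this contrast.

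**Figure D4:**
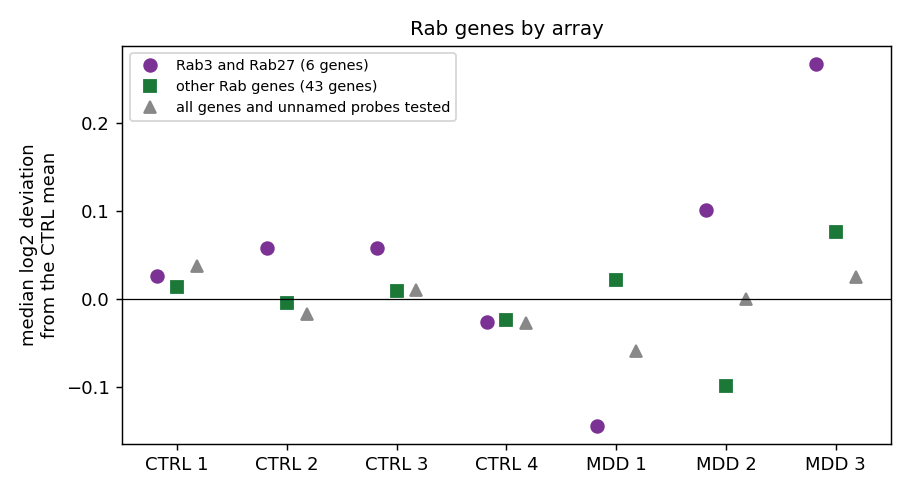
Median log2 deviation from the CTRL mean (y axis) for each of the 7 arrays (x axis), over the 6 Rab3 and Rab27 genes, the 43 other Rab genes and all 19991 features. The Rab3 and Rab27 points of the MDD arrays run from -0.14 in MDD 1 to 0.27 in MDD 3, while those of the other Rab genes stay between -0.10 and 0.08.

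Regulators and effectors were taken from 5 lists with 150 genes, of which 103 were measured. Of these, 19 (18.4%) passed the limma test, 12 higher and 7 lower in MDD, beside the 20.4% of all features given above. The median change over the 103 genes was -0.08. With each of CTRL 1 to 4 left out, 8, 6, 4 and 2 of the 19 still passed, and without MDD 1, 2 and 3 it was 10, 17 and 12. Only Trappc2l and Yif1a passed without any 1 array.

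Exchange factors gave 5 rises and 2 falls among 26 measured members, with a median change of -0.07, beside 12.7% of all features called higher and 7.72% lower. The 5 that rose are subunits of TRAPP, the complex that activates Rab1 and Rab11 at the Golgi, which has 7 measured members in the list. Over all 15 measured TRAPP genes, in and outside the list, the mean was higher in MDD for 8 and lower for 7, with a median change of 0.07. The other TRAPP members of the list were Trappc1 (0.38, adjusted p = 0.117) and Trappc10 (-0.38, adjusted p = 0.139). Trappc2l had the largest change, from 2.18, 2.47, 2.47 and 2.31 in CTRL to 3.35, 3.06 and 3.71 in MDD, without overlap. This was a 2.02-fold rise (log2 change 1.02, SE 0.17, limma adjusted p = 0.0108; 0.00752 to 0.0427 with 1 array left out). Trappc4 (0.51, adjusted p = 0.0190), Trappc9 (0.45, 0.0244), Trappc3 (0.49, 0.0327) and Trappc5 (0.49, 0.0377) also rose. Trappc9 belongs to the form of the complex that activates Rab11. It measured 2.67, 2.66, 2.77 and 2.70 in CTRL and 3.19, 3.18 and 3.08 in MDD, with a narrow spread in both groups. The members that fell were Sbf2, an exchange factor of Rab21 (-0.55, adjusted p = 0.0210), and Dennd6a, an exchange factor of Rab14 (-0.66, adjusted p = 0.0327). Trappc2l is 3769 bp long and Trappc9 477026 bp; with the trend with length and signal removed their changes were 0.62 (adjusted p = 0.0335) and 0.55 (0.0246), while Trappc4 (0.17, 0.211), Trappc3 (0.23, 0.174) and Trappc5 (0.20, 0.254) did not pass.

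Among 21 GTPase-activating proteins, 1 fell and 1 rose (9.52%, against 20.4% of all features called). Tbc1d5, which inactivates Rab7, fell from -1.71, -2.30, -2.19 and -1.89 in CTRL to -2.78, -2.53 and -2.93 in MDD (log2 change -0.73, limma adjusted p = 0.0273). Tbc1d10a, which acts on Rab27a and Rab35, rose by 0.45 (adjusted p = 0.0356). The groups did not overlap for either gene.

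The 11 genes of prenylation and the GDI cycle gave 3 rises, no fall and a median of 0.24 (27.3% called, against 20.4% of all features). Yif1a and Yipf1, membrane proteins of the Yip family of the early secretory pathway, rose by 0.90 (1.86-fold, adjusted p = 0.0113) and 0.72 (1.65-fold, adjusted p = 0.0187). Rabac1, the prenylated Rab acceptor, measured 2.42, 2.72, 2.75 and 2.66 in CTRL and 3.20, 3.16 and 3.84 in MDD, a rise of 0.77 (adjusted p = 0.0280). All 3 were higher in every MDD array than in every CTRL array. Chm, a Rab escort protein that presents Rab proteins for prenylation, had a change of 1.06 (SE 0.37, adjusted p = 0.0727) and did not pass.

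Of the 10 measured genes in the list of Rab3 and Rab27 effectors, only Rims3 passed (10%, against 20.4% of all features). Rims3 encodes a short member of the RIM family that lacks the domain by which Rims1 and Rims2 bind Rab3. It measured 0.90, 0.84, 0.88 and 0.93 in CTRL and 1.16, 1.86 and 1.54 in MDD, without overlap, a 1.55-fold rise (log2 change 0.63, SE 0.17, limma adjusted p = 0.0341). None of the others passed, including Rims1 (-0.36, adjusted p = 0.282), Rims2 (-0.39, 0.0964) and the vesicle protein Rph3a (-0.42, 0.227). Higher in MDD without passing were Unc13d (0.45, limma adjusted p = 0.0517), Sytl1 (0.47, 0.165) and Rph3al (0.27, 0.183). Over the 10 genes of the list the mean was higher in MDD for 5 and lower for 5.

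Among 35 other effectors and kinases, 2 rose and 4 fell, with a median of -0.15 (17.1% called, against 20.4% of all features). Lrrk2, the kinase that phosphorylates Rab8a and Rab10, fell from -2.95, -2.81, -2.62 and -2.70 in CTRL to -3.49, -3.26 and -3.44 in MDD (log2 change -0.63, SE 0.13, limma adjusted p = 0.0173). Rilpl2, which binds Rab8 and Rab10 proteins phosphorylated by Lrrk2, rose by 0.68 (adjusted p = 0.0166). Neither gene had overlapping groups, and they moved in opposite directions. Appl2, an effector of Rab5 on early endosomes (-0.42, adjusted p = 0.0289), and Exoc5, a subunit of the exocyst that tethers vesicles at the plasma membrane (-0.60, adjusted p = 0.0312), fell. Optn fell too (-0.59, adjusted p = 0.0460), and Kif20a rose (0.44, adjusted p = 0.0434). The median genomic length of the lists was 10218 bp for prenylation and the GDI cycle, 40057.5 bp for exchange factors and 56094 to 63478 bp for the others; the part of length in these counts was not tested beyond the fits with the trend removed, in which 8 of the 19 still passed. Beside the 3 TRAPP genes given above, those that did not were Lrrk2 (-0.35, limma adjusted p = 0.0832), Rabac1 (0.35, 0.156), Tbc1d5 (-0.42, 0.0856), Sbf2 (-0.29, 0.106), Appl2 (-0.29, 0.0676), Exoc5 (-0.40, 0.117), Optn (-0.51, 0.0780) and Kif20a (0.32, 0.112). Yif1a passed at a smaller size (0.54, adjusted p = 0.0402).

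**Figure D5:**
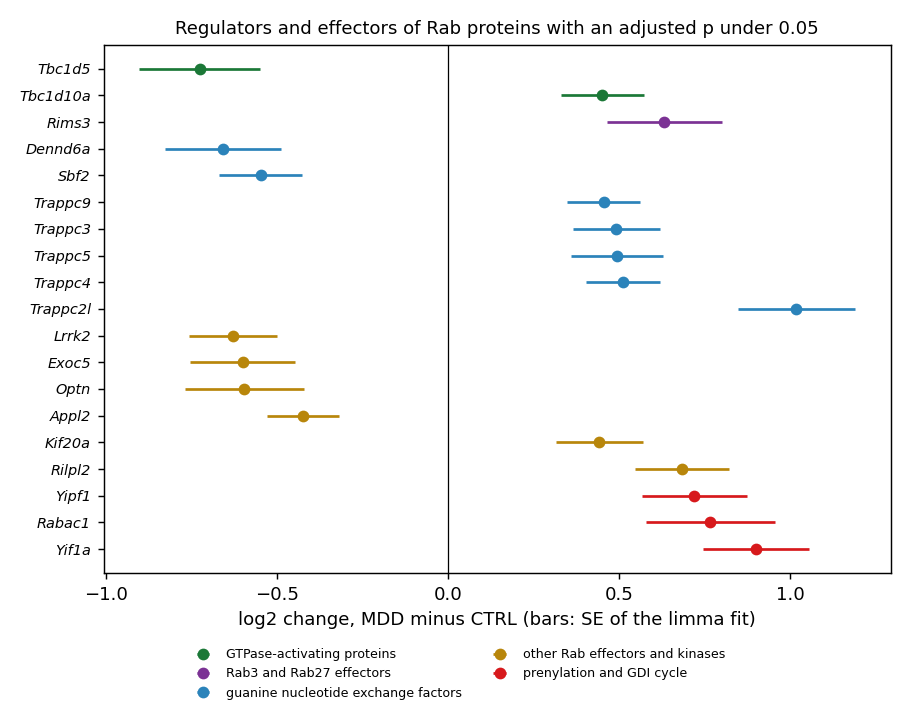
Log2 change (MDD minus CTRL, x axis) of the 19 regulators and effectors of Rab proteins with an adjusted p under 0.05, coloured by list, with bars for the SE of the limma fit (4 CTRL and 3 MDD arrays). Points to the right are the 12 that rose, led by Trappc2l at 1.02, and points to the left the 7 that fell.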

How the data were processed

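Total RNA from the cerebellum of 7 pups was labelled with Cy3 and hybridised to Agilent rat arrays of design 028279. The deposited scanner tables hold linear intensity values and 0 or 1 flags of 58717 spots, which per the file headers came from Feature Extraction 10.7.3.1; the processed signal is background-subtracted and not normalized between arrays. A further deposited table holds the authors' normalized intensity values, in columns that name the group and not the sample; a normalization method was not given in the sources used here, so its scaling is unknown.

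The processed signal was put on the log2 scale and its 75th percentile on each array subtracted. Control spots and spots with an outlier flag were left out, and spots of a probe were averaged. Filtering kept 22255 of 30367 probes, those of which 3 of 7 arrays or more had at least 50% of the spots well above background. Symbols came from matching unversioned accessions to a RefSeq table of GRCr8, which named 18355 of the 30367 probes. The probe with the highest mean stood for a gene. The grid rests on another assembly (rn4, per the file headers), so GRCr8 served only for names, genomic lengths and the promoter windows, whose coordinates are the only ones printed.

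Groups were taken from the sample titles and compared by lmFit and eBayes of limma 3.58.1 under R 4.3.3 (two-sided). The residual degrees of freedom were 5 for the measured Rab genes. They were as few as 2 for features that lacked values on some arrays after flagged spots were left out. Benjamini-Hochberg adjustment ran over 19991 genes and unnamed probes, with a threshold of 0.05. The precision is limited by the number of arrays. The code was tested on simulated data. Per-array values are given for the Rab3 and Rab27 genes and for called members whose groups do not overlap. The 4 brightest members that did not pass and up to 4 called genes of each regulator list by smallest p are named. Other genes named, and other per-array values, were chosen after the values were seen. The members and lists were chosen with earlier results of these data known, so medians and counts over lists carry no test.

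Alternatives were other scalings, normexp correction of the background (offset 50), the deposited table of the authors, other filters on dim probes, the mean of a gene's probes, each array left out, the replicate number or slide row as a block, and removal, array by array, of the trend with genomic length and mean signal. The normexp alternative had been planned on the mean spot signal and was run on the median spot signal, which is the raw signal used here. The labels do not say whether the replicate numbers pair the samples, so the main fit did not pair them. Correlations of deviations between CTRL and MDD arrays of the same number were 0.09, -0.18 and 0.22. For unlike numbers they ran from -0.23 to 0.15. So few values cannot decide whether the numbers pair the samples.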

Additional observations from a re-analysis of the deposited data

Results flagged for a closer look

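Among the 49 measured Rab genes, 4 had 1 CTRL array that stood apart from the other 3 by Dixon's criterion, which chance meets in about 1 of 20 groups. All 49 members were examined, a wider choice than the genes named in the report that was made after the values were seen. CTRL 1 was the lowest for Rab1b at 2.19 and for Rab5c at -2.14, and the highest for Rab26 at 0.12. CTRL 4 was the highest for Rab36 at -0.47. Of these genes only Rab1b passed the limma test in MDD, and its adjusted p lay above the threshold with any 1 array left out.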

How the results depend on the processing

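Over the 7 called and 6 Rab3 and Rab27 genes and 17 alternatives, 221 fits gave the same direction and side of the threshold in 154, a lost call in 57, a gained call in 1 and the other sign in 9. The signs that turned were those of genes near 0: Rab27a with the slide row as a block (0.0529) and with the length and signal trend removed (0.0651); Rab3a with the trend removed (-0.20); and Rab3d with the row block (-0.21) and with the trend removed (-0.0039). With 1 array left out, Rab27a ranged from -0.159 to 0.0544 and was positive without MDD 3, Rab3a from -0.18 (without MDD 3) to 0.331, and Rab3d from -0.12 (without MDD 3; -0.11 without CTRL 1) to 0.345. The 7 called Rab genes kept their direction in all 17 alternatives, which groups without overlap fix for both blocks and for arrays left out. The fits with other filters on dim probes gave these genes the same changes as the main fit, so their direction was fixed as well. The count of 7 became 11 in the authors' deposited table (6 of the same genes), 2 without a filter on dim probes (of 54 Rab genes), 0 with the row block, and 1 to 9 with 1 array left out. With the replicate block, a limma fit on numbers that the labels do not tie to pairs, the count was 0, as over all 19991 features (10 Rab genes and 6159 features at an unadjusted p under 0.05). The count of 19 regulators became 6 without the filter, 9 with the trend removed, 0 with the row block (18 unadjusted), 0 with the replicate block (26 unadjusted), and 2 to 24 with 1 array left out. The median over Rab genes of 0.0736 became 0.0120 with quantile normalization, 0.119 with median scaling, 0.00312 in the authors' table, 0.0240 without the filter, 0.00133 with the row block, -0.0100 with the trend removed, and -0.0659 to 0.0827 with 1 array left out, where it was negative without CTRL 1 (-0.0472), MDD 2 (-0.00143) and MDD 3 (-0.0659). Except for the construction of the filter, trend and leave-one-out alternatives, which test other genes or fewer arrays, the cause was not tested. The difference between Rab3 and Rab27 genes and the others stayed positive (0.0247 to 0.232). The median over the Rab3 and Rab27 genes themselves did not, being -0.0225 without CTRL 1 and -0.0343 without MDD 3. It was 0.0322 with the row block and 0.0306 with the trend removed, against 0.0974 in the main fit. Rises were 62.2% of calls over all features, 72.6% with normexp and 75.6% without the filter. Rab39a and the second probe of Rab23 were near background in MDD, which limits their values.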

Other observations

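The TRAPP complex and the Yip family were looked at more widely after their members had been seen among the called regulators, so the following counts describe and do not test. Of 15 measured TRAPP genes, 6 rose and 1 fell, against 20.4% of all features called. Beside Trappc2l, Trappc4, Trappc9, Trappc3 and Trappc5, Trappc6a rose by 0.83 (limma adjusted p = 0.0121). Trappc8, a subunit of the form of the complex linked to autophagy, fell by 0.98 (adjusted p = 0.0173). Trappc2 (-0.69, adjusted p = 0.0733) and the remaining members did not pass. The median over the 15 was 0.07 and their median genomic length 11135 bp. With the trend with length and signal removed, Trappc2l, Trappc9 and Trappc6a still rose and Trappc8 still fell (-0.77, adjusted p = 0.0365). Of 8 measured Yip genes, Yif1a and Yipf1 rose and Yipf6 fell (-0.64, adjusted p = 0.0318). This was 37.5% called, against 20.4% of all features.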
